A study of Mus musculus with 14 samples.

Results

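The genes examined here maintain the ends of chromosomes or act with the histone chaperone pair Atrx and Daxx. They are 9 genes chosen by name, Tert, Terf1, Terf2, Pot1a, Tinf2, Acd, Rtel1, Atrx and Daxx, and all 9 were among the 30503 genes of the count table and the 17358 genes that were tested. The 9 were chosen with earlier results of these data known. Their mRNA was measured by bulk RNA-seq in 14 clones of cultured tdTomato+ skeletal cells from femoral bone marrow, each clone grown from a single cell of a mouse given tamoxifen at postnatal day 21 (P21). The Fgfr3-WT group held 5 clones isolated at P23 (Fgfr3-creER; R26R(tdTomato/+), passage 8). The Fgfr3-p53 cKO (P28) group held 5 clones (Fgfr3-creER; Trp53fl/fl; R26R(tdTomato/+), passage 8), and the Fgfr3-p53 cKO (P4M) group held 4 clones of that genotype isolated at 4 months, at passages 6 to 8. All groups carried the Fgfr3-creER transgene and the tdTomato reporter, so Cre acted only where the Fgfr3 promoter was active at the time of tamoxifen. Each group is a set of clones that survived serial passage, and the labels do not tie clones to mice, so the p values measure the spread between clones, some of which may share an animal.

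Telomeres are protected by shelterin, a complex in which Terf1 and Terf2 bind the double-stranded repeat, Pot1a binds the single-stranded end, and Tinf2 and Acd join these proteins to each other. Telomerase adds repeats through its reverse transcriptase Tert and an RNA template, and the helicase Rtel1 unwinds telomeric structures during replication. Atrx and Daxx deposit histone H3.3 at telomeres and other repeats, and loss of either is known from tumours that lengthen telomeres without telomerase, osteosarcoma among them.

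Total counts per clone lay between 25688946 and 52857424, and a count of 0 allowed an abundance of up to 0.0564 to 0.121 CPM (counts scaled to the total of the library, with TMM factors between libraries), for counting error only. Trp53, the deleted gene, was at 55.0 ± 7.68 CPM (SD, n = 5) in Fgfr3-WT, 2.47 ± 0.243 (n = 5) in P28 and 2.09 ± 0.278 (n = 4) in P4M. The Fgfr3-WT libraries came from one library submission and all cKO libraries from another, so genotype and submission cannot be told apart. Fgfr3-WT clones were isolated at P23 and cKO clones at P28 or 4 months, so age at isolation is also tied to genotype. The paper reports faster growth of cKO clones and better survival over passages, with wild-type clones taking longer to reach the same passage. Genotype thus cannot be told apart from time in culture or from the selection of clones either. The summed level of 8 skeletal stromal markers was 559 to 5950 CPM in Fgfr3-WT and 16307 to 84755 CPM in cKO clones; the collagen gene Col1a2 was near 0 in some Fgfr3-WT clones, with a median of 0.797 CPM, while Pdgfrb was at 233 to 514 CPM there. The collagen genes Col1a1 and Col1a2 made up most of the sums in cKO clones; Col1a1 and Runx2 were called higher in both cKO groups and Twist1 in P4M, Sox9 was called lower in both (-2.16 and -3.39 on the log2 scale), and Prrx1, Pdgfra, Pdgfrb and Col1a2 were not called. Of 7 blood markers in the table, Ptprc and Itgam were at or near 0 in all clones, and the summed level was 16.6 to 145 CPM in Fgfr3-WT against 3.44 to 22.3 CPM in cKO clones. Cd68 (-3.47 and -2.81 on the log2 scale) and Lyz2 (-2.30 and -3.61) were called lower in both cKO groups, while Csf1r was called higher in P28 (1.81). Of 5 endothelial markers Cdh5 was at 0 in every clone, and the sums were 0.0809 to 0.740 CPM in Fgfr3-WT, 0.410 to 4.49 CPM in P28 and 2.75 to 12.8 CPM in P4M, and Kdr, one of them, was called higher in both cKO groups. Fgfr3-WT replicate 1 stood apart: it was the only clone with more than 1 count of a Y-linked gene, and it had 5 counts of Xist, the RNA of the inactive X chromosome. The part of these differences in the results was not tested.

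The shelterin gene Tinf2 and the helicase gene Rtel1 were higher in cKO clones, about 1.83 and 1.67 times the Fgfr3-WT level in P28, and Atrx was lower in P4M clones, a call that was lost for 8 of the 14 clones left out in turn. In P28 against Fgfr3-WT, 2 of the 9 genes were called higher at an FDR of 0.05 (edgeR's quasi-likelihood test), 0 were called lower and 7 were not called. In bulk RNA, fewer cells expressing a gene and less of its RNA per cell cannot be told apart. Over all genes tested, 19.2% were called higher and 19.7% lower. In P4M against Fgfr3-WT, 2 were called higher and 1 lower, where 22.3% of all genes were called higher and 23.6% lower. The share of the 9 genes called higher was near that of all genes in both comparisons. Their median log2 fold change was 0.22 and 0.18, against -0.02 and -0.06 for all genes tested. The 2 comparisons share the Fgfr3-WT clones.

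**Figure D1:**
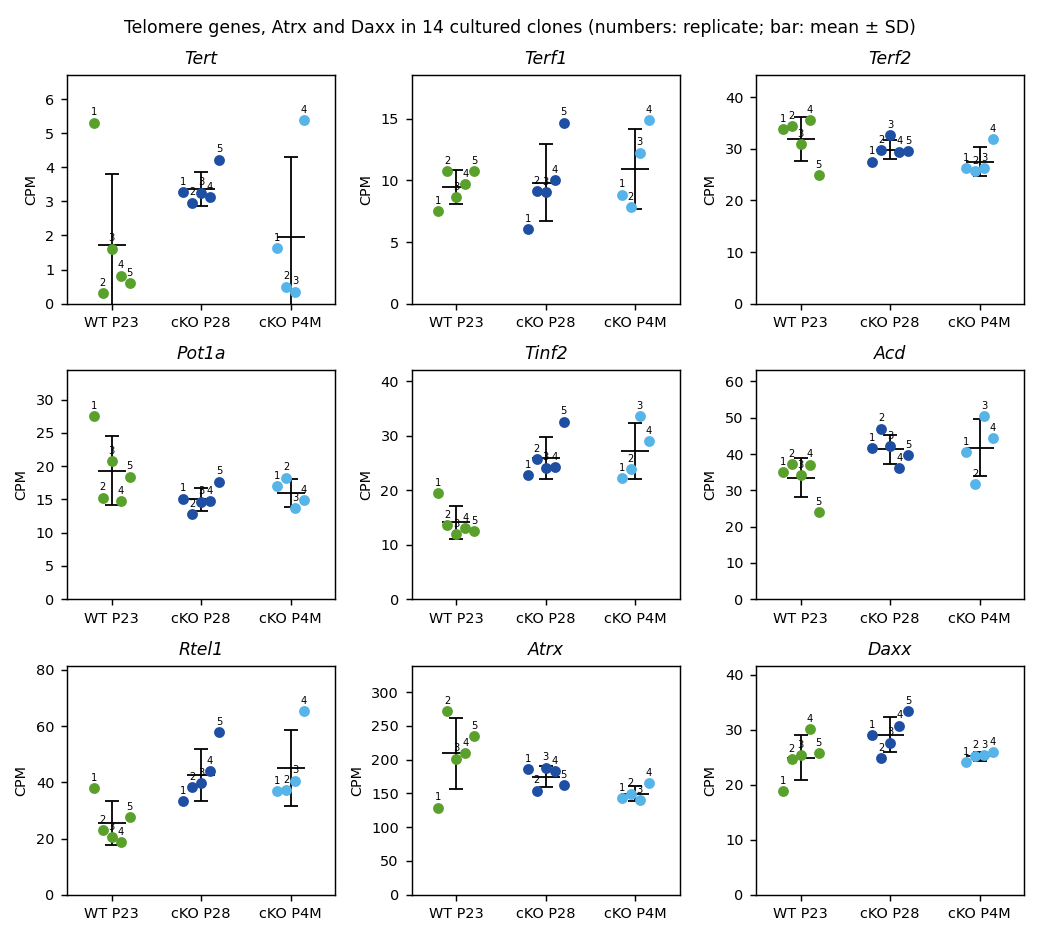
Level of each of the 9 genes in CPM (linear axes from 0) in the 5 Fgfr3-WT (P23), 5 Fgfr3-p53 cKO (P28) and 4 Fgfr3-p53 cKO (P4M) clones; points are clones with their replicate number, the bar is the mean and the whiskers are the SD, not drawn below 0. Tinf2 is the gene in which the cKO clones, at 22.2 CPM and above, lie clear of the Fgfr3-WT clones, at 19.4 CPM and below.

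Tinf2 (ENSMUSG00000007589) lies on the minus strand at chr14:55674689-55681820 (mm10, GENCODE M21). Its levels in the Fgfr3-WT clones were 19.4, 13.5, 11.9, 13.1 and 12.5 CPM. In P28 clones they were 22.7, 25.7, 24.1, 24.2 and 32.6 CPM, and in P4M clones 22.2, 23.9, 33.6 and 29.0 CPM. Every cKO clone was above every Fgfr3-WT clone. The log2 difference was 0.87 (adjusted p = 0.0017 in edgeR, SE 0.173) in P28 and 0.95 (adjusted p = 0.0011 in edgeR, SE 0.181) in P4M, which is 1.83 and 1.93 times the Fgfr3-WT level. Both calls held whichever of the 14 clones was left out. Of the exonic bases of Tinf2, 31.2% are shared with Gmpr2 on the other strand. Gmpr2, a reductase of nucleotide metabolism, had a log2 fold change of 0.47 (adjusted p = 0.0512 in edgeR) in P28 and 0.55 (adjusted p = 0.0288) in P4M. The libraries do not mark strand, so reads of the shared bases cannot be assigned to one of the 2 genes. Only non-ambiguous reads were counted, and whether reads of these bases were left out is not stated. The size of the Tinf2 difference is uncertain to that extent.

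Rtel1 (ENSMUSG00000038685) lies on the plus strand at chr2:181319739-181356616. It was at 38.0, 23.0, 20.6, 18.8 and 27.5 CPM in Fgfr3-WT, at 33.3, 38.3, 39.8, 44.0 and 57.8 CPM in P28, and at 36.8, 37.4, 40.6 and 65.2 CPM in P4M. The groups overlapped only through Fgfr3-WT replicate 1, which was above the lowest P28 clone and the 2 lowest P4M clones. The log2 difference was 0.74 (adjusted p = 0.0209 in edgeR, SE 0.228) in P28 and 0.82 (adjusted p = 0.0137 in edgeR, SE 0.240) in P4M. The P28 call was lost without Fgfr3-WT replicate 4 (adjusted p = 0.0512 in edgeR) or P28 replicate 5 (adjusted p = 0.0630), and the P4M call without P4M replicate 4 (adjusted p = 0.0583). Among the Fgfr3-WT clones, replicate 4 had the highest level of the proliferation gene Mki67, 33.4 CPM against 0.850 to 5.74 CPM, and the lowest Rtel1.

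The start regions of Tinf2 and Rtel1, the genes called higher in both cKO groups, and of Tert, the gene with the most uneven level, are shown to compare their letters. Each is the 250 bases before the RefSeq start site (GRCm38.p6), 5′ to 3′ on the strand of the gene, with matches to the searched motifs in capitals.
Tinf2, chr14:55681818-55682067, minus strand: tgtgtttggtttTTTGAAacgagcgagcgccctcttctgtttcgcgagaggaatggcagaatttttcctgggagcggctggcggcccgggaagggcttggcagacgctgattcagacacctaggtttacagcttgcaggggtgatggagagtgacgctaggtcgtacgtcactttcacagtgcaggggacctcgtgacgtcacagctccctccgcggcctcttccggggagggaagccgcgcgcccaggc
Rtel1, chr2:181319474-181319723, plus strand: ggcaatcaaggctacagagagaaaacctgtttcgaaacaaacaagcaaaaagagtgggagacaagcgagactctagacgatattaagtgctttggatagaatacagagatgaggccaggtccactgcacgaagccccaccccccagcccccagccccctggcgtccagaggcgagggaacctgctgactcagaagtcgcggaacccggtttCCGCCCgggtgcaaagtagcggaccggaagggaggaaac
Tert, chr13:73626661-73626910, plus strand: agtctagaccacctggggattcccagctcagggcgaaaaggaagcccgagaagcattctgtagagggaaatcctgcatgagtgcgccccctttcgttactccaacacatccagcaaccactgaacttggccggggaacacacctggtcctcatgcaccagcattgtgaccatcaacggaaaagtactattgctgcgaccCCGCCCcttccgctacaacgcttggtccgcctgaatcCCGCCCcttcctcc

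The motifs were searched on both strands, and positions count from the first letter of the match as printed. The GC box GGGCGG is in 32.7% of 32851 such windows, the cell cycle element TTTGAA in 16.0%, the E-box CACGTG in 6.02%, and the E2F motifs TTTCGCGC and TTTGGCGC in 0.256% and 0.417%. Rtel1 had 1 GC box, 39 bases before its start site, and Tert had 2, at 51 and 14 bases. Tinf2 had no GC box and 1 TTTGAA, 238 bases before its start site. Of the other members, Pot1a had 1 GC box, Daxx had 2 or 3 in each of its 3 overlapping windows, some of them sharing a base, Terf2 had 1 TTTGAA, and Acd and Atrx had no match to any motif. The E-box and both E2F motifs were in none of the windows of the 8 members that have one. The GC box and TTTGAA are common, and a match is a description of the sequence only.

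The other shelterin members examined, Terf1, Terf2, Pot1a and Acd, were not called in either cKO group. Terf1 ranged from 7.49 to 10.8 CPM in Fgfr3-WT, 6.07 to 14.7 in P28 and 7.81 to 14.9 in P4M, with log2 fold changes of 0.05 (SE 0.244) and 0.21 (SE 0.258). Terf2 was the tightest of the complex, at 24.8 to 35.5, 27.5 to 32.6 and 25.7 to 31.8 CPM, with log2 fold changes of -0.10 (SE 0.120) and -0.21 (SE 0.128). Pot1a was at 14.8 to 27.6, 12.8 to 17.7 and 13.7 to 18.3 CPM, with log2 fold changes of -0.37 (adjusted p = 0.119 in edgeR, SE 0.179) and -0.28 (adjusted p = 0.250, SE 0.190). The highest Pot1a value was again Fgfr3-WT replicate 1, and the groups overlapped. Acd was at 24.1 to 37.2, 36.2 to 47.0 and 31.8 to 50.5 CPM, with log2 fold changes of 0.30 (adjusted p = 0.129 in edgeR, SE 0.151) and 0.32 (adjusted p = 0.118, SE 0.159); it was called in P4M only without P4M replicate 2 (adjusted p = 0.0430). Of the exonic bases of Acd, 33.3% are shared with Carmil2 on the other strand, whose log2 fold changes were -0.06 and 0.03.

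Mice have a second single-strand binding protein gene, Pot1b, which is known to limit resection of the chromosome end. It was at 6.43 to 16.1 CPM in Fgfr3-WT, 5.41 to 8.43 in P28 and 3.93 to 5.46 in P4M, so every P4M clone was below every Fgfr3-WT clone. The log2 fold change was -1.19 (adjusted p = 0.0031 in edgeR, SE 0.269) in P4M and -0.63 (adjusted p = 0.0570, SE 0.247) in P28. The ratio of Pot1a to Pot1b in TPM (transcript abundance per length, scaled to the same total in every clone) was 1.31 to 3.25 in Fgfr3-WT, 1.59 to 3.24 in P28 and 2.95 to 3.97 in P4M, so the groups overlapped. Terf2ip, the partner of Terf2, was also lower in P4M, with a log2 fold change of -0.46 (adjusted p = 0.0171 in edgeR, SE 0.141), and was at -0.24 (adjusted p = 0.174) in P28; without P4M replicate 1 the P4M difference was -0.39 and not called (adjusted p = 0.0693).

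Tert (ENSMUSG00000021611, plus strand, chr13:73626911-73649843) was the lowest of the 9 genes and the least even. It was at 5.31, 0.306, 1.62, 0.825 and 0.594 CPM in Fgfr3-WT, from 163, 8, 40, 29 and 15 counts. In P28 clones it was at 3.27, 2.96, 3.26, 3.12 and 4.23 CPM. In P4M clones it was at 1.64, 0.501, 0.356 and 5.37 CPM. The P28 clones lay close together and above 4 of the 5 Fgfr3-WT clones, while both other groups ran from under 1 to over 5 CPM. On the log2 scale the difference was 0.96 (adjusted p = 0.357 in edgeR, SE 0.786) in P28 and 0.18 (adjusted p = 0.873, SE 0.826) in P4M. Without Fgfr3-WT replicate 1 it was 1.99 in P28 and called (adjusted p = 0.0443 in edgeR), and 1.22 in P4M (adjusted p = 0.189). Without P4M replicate 4 it was -1.05 in P4M (adjusted p = 0.321). The 2 clones with the highest Tert were also the 2 with the lowest Xist: Fgfr3-WT replicate 1, with 0.163 CPM of Xist, and P4M replicate 4, with 78.5 CPM, where the other 12 clones had 229 to 1079 CPM. That pairing rests on 2 clones and was seen only after the values were known. A link between Xist and Tert was not tested. Terc, the RNA template of telomerase, was not in the count table and is listed at 0 TPM in all 14 clones.

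Atrx (ENSMUSG00000031229, minus strand, chrX:105797615-105929403) was the most abundant of the 9 genes. It was at 129, 271, 202, 210 and 235 CPM in Fgfr3-WT, at 186, 154, 188, 182 and 162 CPM in P28, and at 143, 150, 140 and 166 CPM in P4M. All cKO clones were below 4 of the 5 Fgfr3-WT clones, and above replicate 1. On the log2 scale the difference was -0.26 (adjusted p = 0.225 in edgeR, SE 0.164) in P28 and -0.48 (adjusted p = 0.0373 in edgeR, SE 0.176) in P4M. The P4M call did not hold for 8 of the 14 clones left out in turn, Fgfr3-WT replicates 2, 4 and 5, P28 replicate 5 and each of the 4 P4M clones (adjusted p = 0.0501 to 0.0975 in edgeR), nor without a filter on low counts (adjusted p = 0.114), nor in a fit of only the 2 groups (adjusted p = 0.0909). Without Fgfr3-WT replicate 1 Atrx was called lower in both groups, with log2 fold changes of -0.42 (adjusted p = 0.0127 in edgeR) and -0.63 (adjusted p = 0.0016).

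Other X-linked genes were on median lower in cKO clones too. The 590 X-linked genes tested had a median log2 fold change of -0.32 in P28 and -0.49 in P4M, and the 25 genes within 2 Mb of Atrx had medians of -0.41 and -0.39. Per clone, the median shift of 321 other X-linked genes against the Fgfr3-WT mean, less the autosomes, was -1.17, 0.35, 0.03, 0.46 and 0.30 log2 units in Fgfr3-WT, -0.16 to -0.36 in P28 and -0.41 to -0.55 in P4M. Fgfr3-WT replicate 1, with the Y-linked transcripts, had the lowest shift and the lowest Atrx, while within P4M the clone with the lowest shift, replicate 4, had the highest Atrx. The 3 genes whose log2 CPM was most like Atrx over the 14 clones, out of 9659 compared, were Rtl8a, Hnrnph2 and Magee1, with Pearson r of 0.93 each, and all 3 are X-linked. The part of the X chromosome in the difference of Atrx was not tested.

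**Figure D2:**
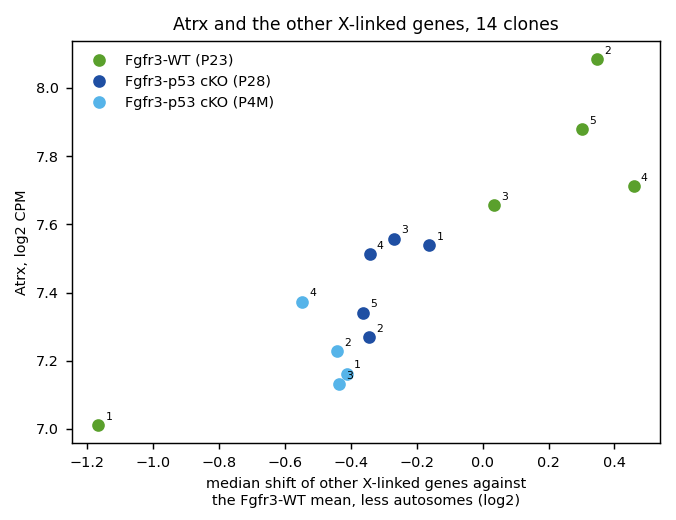
Level of Atrx (log2 CPM) against the median shift of 321 other X-linked genes in log2 units, for the 14 clones, coloured by group and numbered by replicate. Fgfr3-WT replicate 1 is at the lower left, with a shift of -1.17, the other 4 Fgfr3-WT clones at the upper right, and the 9 cKO clones between them.

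Daxx (ENSMUSG00000002307, plus strand, chr17:33909414-33915590) was at 18.8, 24.6, 25.4, 30.2 and 25.7 CPM in Fgfr3-WT, at 29.0, 24.8, 27.7, 30.8 and 33.4 CPM in P28, and at 24.1, 25.3, 25.4 and 25.9 CPM in P4M. The groups overlapped, and the 4 P4M clones lay within 2 CPM of each other. The log2 fold change was 0.22 (adjusted p = 0.194 in edgeR, SE 0.131) in P28 and 0.01 (adjusted p = 0.946, SE 0.139) in P4M. With libraries scaled by their totals alone it was called higher in P28 (0.33, adjusted p = 0.0383). In TPM, Daxx was at 16.5 to 19.8 in Fgfr3-WT, 24.4 to 30.8 in P28 and 20.7 to 23.3 in P4M, so on that scale no cKO clone overlapped the Fgfr3-WT clones. The TPM scale ran higher for most genes in P28: the log2 ratio to Fgfr3-WT was higher in TPM than in CPM by a median of 0.29 per gene over 17271 genes in P28, and by a median of 0.09 over 17249 genes in P4M. The 2 genes most like Daxx were Atp5o (r = 0.95) and Ifngr2 (r = 0.91), over 14 clones and 9659 genes; both lie on chromosome 16, where Daxx does not. The shift of chromosome 16, chosen after these genes were seen, ran from -0.69 in P28 replicate 2, the P28 clone with the lowest Daxx, to 0.18 in P28 replicate 5, that with the highest. It was -0.08 in Fgfr3-WT replicate 1, which had the lowest Daxx of all clones, and -0.37 to -0.25 in the P4M clones.

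**Figure D3:**
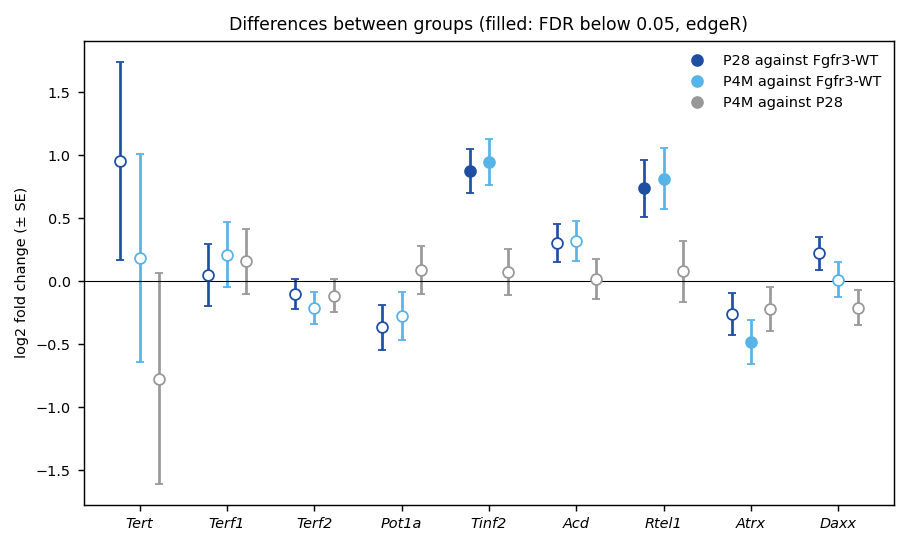
Log2 fold change with its SE for the 9 genes between each pair of groups; filled points were called at an FDR of 0.05 by edgeR. Tinf2 and Rtel1 are filled in both comparisons with Fgfr3-WT, Atrx in P4M against Fgfr3-WT, and no gene in P4M against P28.

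The 2 cKO groups, which share the genotype and the library submission, were not distinguished by any of the 9 genes. In P4M against P28, 0 genes were called higher or lower by edgeR, 0 by DESeq2, and 0 had an unadjusted p below 0.05 in edgeR. The share of all genes with such an unadjusted p is not given here. Over all genes, 3.34% were called higher and 3.88% lower, which is 580 and 674 genes; with libraries scaled by their totals alone 400 of 1205 calls were higher. The log2 differences lay between -0.77 (SE 0.835) for Tert and 0.16 (SE 0.258) for Terf1. For Tinf2 the difference was 0.07 with a 95% interval of ± 0.390, and for Rtel1 0.08 ± 0.516, so changes of up to that size are not excluded by these clones.

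In TPM, which allows a comparison between genes, the median over the 14 clones was 48.0 for Atrx, 37.5 for Acd, 31.1 for Rtel1, 22.7 for Daxx, 21.2 for Tinf2, 19.8 for Terf2, 10.5 for Terf1, 9.83 for Pot1a and 1.15 for Tert. Daxx, Tinf2 and Terf2 followed each other closely, and their ranges, 16.5 to 30.8, 9.05 to 32.7 and 14.3 to 25.2 TPM, overlapped widely. The ranges of Terf1 and Pot1a, from 6.24 to 18.3 and 7.10 to 17.1 TPM, overlapped too. Tert, at 0.130 to 2.35 TPM, did not reach the lowest value of any other member.

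Some clones stood high or low for several of the 9 genes at once. P28 replicate 5 was the highest of its group for 6 of the 9 (Tert, Terf1, Pot1a, Tinf2, Rtel1 and Daxx), and P4M replicate 4 was the highest of its group for 6 (Tert, Terf1, Terf2, Rtel1, Atrx and Daxx). These 2 clones also had the highest Mki67 of their groups, 142 and 172 CPM. In Fgfr3-WT, replicate 4 had the highest Mki67. That clone was the highest for 2 of the 9 (Terf2 and Daxx) and the lowest for 2 (Pot1a and Rtel1). A link of these levels to Mki67 was not tested. Fgfr3-WT replicate 1 was the highest for 4 (Tert, Pot1a, Tinf2 and Rtel1) and the lowest for 3 (Terf1, Atrx and Daxx), with Mki67 at 0.880 CPM. The 3 genes most like Tert over the 14 clones were Vasp (r = 0.82), B230219D22Rik (r = 0.81) and Mecom (r = 0.80), out of 9660 genes. These correlations share the libraries and are a description only.

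**Figure D4:**
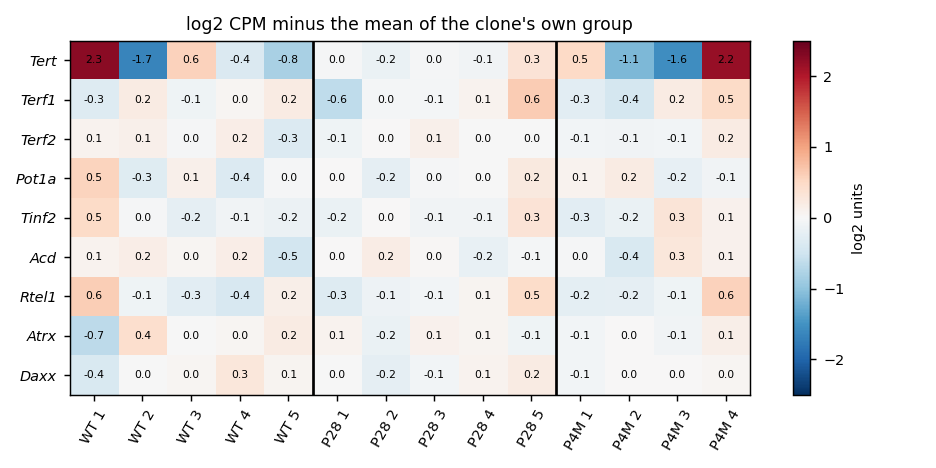
Log2 CPM of each of the 9 genes in each of the 14 clones minus the mean of the clone's own group, in log2 units (red above, blue below the group mean). The Tert row holds the deepest colours, in Fgfr3-WT replicates 1 and 2 and P4M replicates 3 and 4.

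The other genes of the pathway were read from a list of 60, of which 59 were tested. The list was chosen with earlier results of these data known, so its counts beside those of all genes are a description only. In P28 against Fgfr3-WT, 27 were called higher and 4 lower (edgeR), with a median log2 fold change of 0.47, where 19.2% of all genes were called higher and 19.7% lower; in P4M against Fgfr3-WT it was again 27 and 4, with a median of 0.46, where 22.3% and 23.6% of all genes were called. These shares are also the background for the counts of each smaller list. In P4M against P28 edgeR called 0 (median -0.03), where 3.34% of all genes were called higher and 3.88% lower. In that comparison 8 had an unadjusted p below 0.05 in edgeR, and DESeq2 called 2, Gar1 and Nhp2. The share of all genes with such an unadjusted p is not given here, so the count of 8 has no background. The highest list median was in the group that replicates and trims telomeric DNA, at 0.99 in P28 and 0.89 in P4M, where 9 of 12 genes rose in P28, 7 of 12 in P4M and none fell. In it, the helicase Pif1 rose by 4.21 and 3.29 log2 units, from 0 to 2.25 CPM in Fgfr3-WT to 3.46 to 15.2 and 2.80 to 7.09 CPM, and the nuclease Exo1 rose by 3.93 and 3.86, as did the helicase Recql4 by 2.68 and 3.73. The P4M call of Pif1 was lost without Fgfr3-WT replicate 3 or 5 or P4M replicate 3 or 4 (3.12 and adjusted p = 0.0575 in edgeR without the last). Of the 7 genes of the CST complex and polymerase alpha-primase, which fill in the strand that telomerase does not make, 5 rose in P28 and 4 in P4M, among them Prim1 (1.18 and 1.06), Pola1 (1.15 and 1.37) and Prim2 (1.07 and 1.02). Of the CST genes themselves, Stn1 was called in P28 only, and Ctc1 and Ten1 in neither group. The Stn1 call was lost for 5 of the 14 clones left out in turn, and the P4M call of Pola2 for 4.

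Of the 13 genes of recombination repair linked to telomerase-independent lengthening, 6 rose and 1 fell in P28, and 7 rose and 1 fell in P4M. The counts include Mre11a in P28, lost for 12 of the 14 clones left out, and Nbn in P4M, lost for 7. Rad51ap1, which stimulates strand exchange, rose by 3.38 and 3.52 log2 units, and Topbp1, which activates the checkpoint kinase Atr, by 1.18 and 1.15. Smarcal1, which remodels stalled forks, fell by 0.54 in P28 and by 0.43 in P4M, a call that was lost without P4M replicate 1 (-0.34, adjusted p = 0.0508 in edgeR). Of the 14 histone H3.3 chaperones and partners of Atrx and Daxx, 4 rose in P28 and 6 in P4M and none fell. The P4M count includes H3f3b, lost for 5 of the 14 clones left out (adjusted p up to 0.0718 in edgeR). Here the chaperone Asf1b rose by 2.86 and 2.90, and the methyltransferases Suv39h1 by 1.37 and 1.20 and Suv39h2 by 1.63 and 2.02. Sp100, a nuclear body protein, was called in P4M (4.62, SE 1.54, adjusted p = 0.0255 in edgeR) with 0 to 5 counts in the Fgfr3-WT clones, 6.26 CPM in P4M replicate 3 and 0.208 to 0.639 CPM in the other 3 clones, and was at 2.41 (adjusted p = 0.213) in P28. Without P4M replicate 3 it was at 2.41 in P4M and not called (adjusted p = 0.183 in edgeR), and the call was also lost without Fgfr3-WT replicate 2 or 4.

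Of the 11 tested genes of the telomerase particle, 3 rose and 3 fell in P28, and 3 rose and 1 fell in P4M. Gar1 rose by 0.75 and 1.23 and Nhp2 by 0.52 and 1.15, while Nop10 fell by 0.57 and by 0.71; these 3 bind the same class of RNAs. In P28 Shq1, an assembly factor, fell by 0.71 (adjusted p = 0.0190 in edgeR), and Pinx1, an inhibitor of telomerase, fell by 0.50 (adjusted p = 0.0436). Several of these calls were lost when 1 clone was left out: Nhp2 and Pinx1 in P28 for 9 of the 14 clones each (adjusted p up to 0.116 without P28 replicate 5 and 0.0911 without P28 replicate 1), Nop10 in P28 for 8 (up to 0.110 without Fgfr3-WT replicate 5), and Nop10 in P4M without P4M replicate 3 (0.0579) or 4. The proliferation genes Mki67, Top2a, Pcna and Mcm2 also rose in both cKO groups, by 3.62, 3.83, 0.97 and 1.83 log2 units in P28 and by 3.65, 4.18, 1.21 and 2.12 in P4M. Their part in the changes of the pathway genes was not tested.

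**Figure D5:**
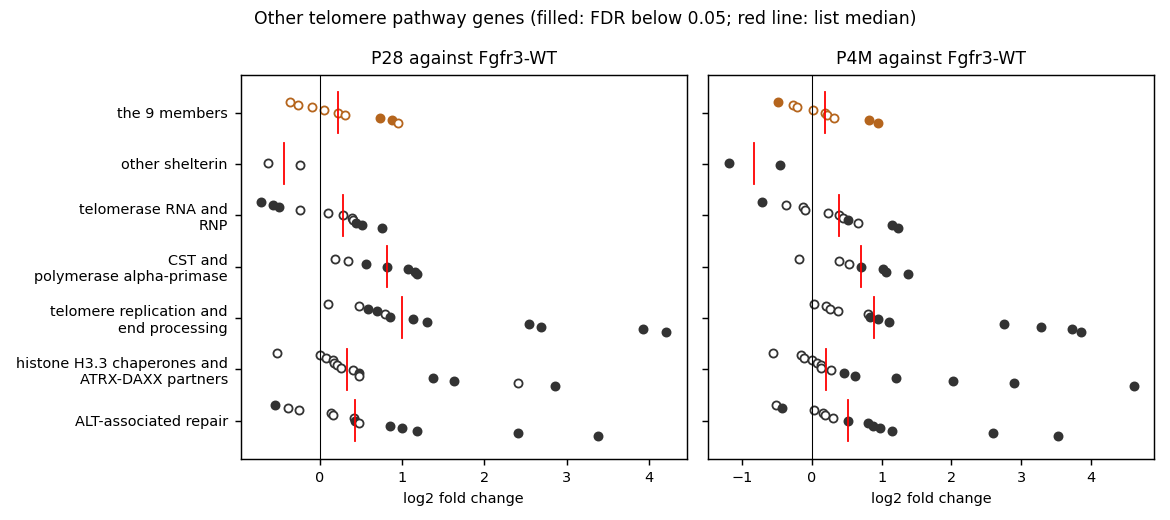
Log2 fold change of the 9 genes and of 59 other telomere pathway genes by list, in P28 and in P4M against Fgfr3-WT; each point is a gene, filled where called at an FDR of 0.05 by edgeR, and red lines are list medians. The points beyond 2 log2 units belong to the replication, histone chaperone and repair lists, while the 9 genes stay within 1 log2 unit of 0.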

How the data were processed

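The analysis used 2 tables deposited by the authors for 14 cultured clones. Per the labels and the methods, libraries were made with a SMART-Seq v4 kit, which does not mark strand, reads were aligned to mm10 with TopHat and Bowtie2, and non-ambiguous reads were counted with HTSeq. The count table deposited by the authors holds whole numbers without normalization. The TPM table deposited by the authors holds TPM values, normalized by them for length and depth, and served for levels between genes. The rlog, depth-normalized, FPKM and expected count tables were not used.

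Counts were tested in R 4.3.3 with edgeR 4.0.16 (limma 3.58.1): filterByExpr, TMM scaling and a robust quasi-likelihood fit of 3 group means to all 14 clones, with Benjamini-Hochberg adjustment over 17358 genes and calls at an FDR of 0.05. Intervals use the SE and the total degrees of freedom of the fit. No batch term could be fitted. Log2 CPM used a prior count of 2. The fit was run on simulated counts to check false calls and bias. A first requirement on the share of changed genes called was not met there. It was replaced after that result was seen, so genes that were not called may still differ. Total counts of 25688946 to 52857424 per clone set the precision.

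The alternatives were RLE scaling, scaling by the library total, DESeq2 1.42.0, no filter, at least 10 counts in every clone, only the 2 groups compared, a minimum log2 change of 1 in either direction, and leaving out each clone. Chromosome shifts and most alike genes left out genes below a mean log2 CPM of 3.

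Members and lists were chosen with earlier results of these data known. Besides the 9 members, the text names Trp53, all genes of lists of up to 6 genes, the 3 called genes with the largest change in each longer list and contrast, 4 proliferation genes, Xist, and the 3 genes most alike to Tert, Atrx and Daxx; some items that this rule takes are not reported here. Overlap partners, Pinx1, Mre11a, Nbn, Smarcal1, Stn1, Ctc1, Ten1, Pola2, H3f3b, Terc, the markers and chromosome 16 were named after their values were seen. Promoters are from RefSeq; 8 of 9 members matched. Python 3.11.15 with pandas 2.3.3, numpy 2.4.6 and matplotlib 3.10.9 was used.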

Additional observations from a re-analysis of the deposited data

Results flagged for a closer look

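In 27 groups of clones (9 genes, 3 groups), 4 held a clone whose log2 CPM lay farther from its neighbour than Dixon's 95% critical value allows, and chance flags about 1 in 20 groups. They were Tert in P28 replicate 5 (4.23 CPM, above the other 4), Terf2 in P4M replicate 4 (31.8 CPM, above the other 3), Tinf2 in Fgfr3-WT replicate 1 (19.4 CPM, above the other 4) and Acd in Fgfr3-WT replicate 5 (24.1 CPM, below the other 4). Without Fgfr3-WT replicate 1 the log2 fold change of Tinf2 was 0.99 in P28 and 1.08 in P4M.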

How the results depend on the processing

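No paired analysis was made, because the labels do not match clones of different groups. The replicate numbers used here are running numbers, not labels of the study. Over the 14 fits that left out 1 clone, the number of the 9 genes called ranged from 1 to 4 in P28 and from 1 to 3 in P4M against Fgfr3-WT, and of the other pathway genes in P4M against P28 from 0 to 3. The calls over all genes moved too, from 5805 to 7253 in P28 and from 6799 to 8454 in P4M against Fgfr3-WT. These fits tested 17077 to 17751 genes. With a minimum log2 change of 1, 0 of the 9 genes were called in either comparison, and 16 and 18 of the other pathway genes. The share of all genes called at that minimum is not given here, so these counts have no background beside them. In P4M against P28, DESeq2 called 2 other pathway genes and a fit of only those 2 groups 4 (Gar1, Nhp2, Rad52 and Setdb1); over all genes they called 2607 and 3051, against 1254, and leaving out 1 clone gave 480 (without P4M replicate 1) to 2132 (without Fgfr3-WT replicate 1). Tinf2 (-0.0053) and Acd (-0.061) in P4M against P28 changed sign with libraries scaled by their totals, and Acd (-0.014) also with at least 10 counts in every clone, a filter that drops Tert and leaves 56 of the 59 other pathway genes. Left-out fits changed the sign of differences that were not called: Terf1 in P28 (-0.17 to 0.17), Tert (-1.05 to 1.22) and Daxx (-0.078 to 0.089) in P4M, and Terf1 (-0.021 to 0.37), Tinf2 (-0.044 to 0.20), Acd (-0.085 to 0.13) and Rtel1 (-0.15 to 0.24) in P4M against P28. Of 537 alternative values, 505 kept direction and side of the threshold. Most of the 537 belong to differences that were not called in the main fit, so the count says little about the calls. In 13 a call was lost, each time of Rtel1 or Atrx. In TPM the P28 ratios of Terf2 and Atrx lay above 1. The causes were not tested. Depth limits Tert, with as few as 8 counts in a clone, and Exo1, Pif1 and Sp100, with as few as 6, 0 and 0.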
